A study of Mus musculus with 5 samples.

Results

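The nuclear genes of respiratory complexes II, III, IV and V were followed in the cerebral cortex of Uhrf1 conditional knockout (cKO) mouse embryos. Members were taken by gene name: Sdha to Sdhd for complex II, Cyc1 and every name starting with Uqcr for complex III, the Cox names with the numerals 4 to 8 for complex IV, and every name starting with Atp5 for complex V. Of the 23997 gene names in the table, 48 matched, with 4 for complex II, 9 for complex III, 18 for complex IV and 17 for complex V. Among the 17 names of complex V, Atp5s and Atp5sl are named after the ATP synthase but encode other mitochondrial proteins, and Cox7a2l in complex IV encodes a factor that joins complexes into supercomplexes.

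These complexes sit in the inner mitochondrial membrane. Complex II oxidises succinate, complex III passes electrons from ubiquinol to cytochrome c, complex IV hands them to oxygen, and complex V, the ATP synthase, uses the proton gradient to make ATP. Their subunits are built from nuclear genes and, in complexes III, IV and V, also from the mitochondrial genome. Several complex IV subunits come in pairs of genes, with 1 gene used in most tissues and a paralog used mainly in muscle, lung or testis. Uhrf1 is the factor that brings the maintenance DNA methyltransferase to newly replicated CpG sites, and genes of the male germline are known to be among those held silent by CpG methylation.

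RNA-seq was done on the entire cortex of C57BL/6 mice at embryonic day 16. The 3 control libraries (MG15, MG16 and MG17) come from Uhrf1 +/- embryos and the 2 cKO libraries (MG18 and MG19) from Uhrf1 -/- embryos, and both genotypes carry the Emx1-driven Cre, so the controls had lost 1 Uhrf1 allele in the same cells. The Cre acts in the dorsal telencephalon, so a dissected cortex also holds cells it does not recombine, such as blood vessels, microglia and interneurons that migrate in. The study describes the libraries of each genotype as biological replicates. Values are FPKM from Cuffdiff, fragments per kilobase of a transcript scaled for library size, and so can be set side by side between genes. Differences are given as the log2 fold change (log2FC) of cKO over control, computed from log2(FPKM + 0.1), with ± its standard error (SE). They were tested with limma over the 14698 genes whose mean reached 0.1 FPKM. Adjusted p refers to all of these genes, and "p under 0.05" without that word to the unadjusted limma p. On this scale the change of weakly expressed genes is understated. With 3 libraries against 2, the smallest two-sided p of an exact permutation test is 0.1.

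Uhrf1 itself stood at 7.24, 13.2 and 12.95 FPKM in the controls and at 2.75 and 2.61 FPKM in cKO cortices (log2FC -1.97 ± 0.28, limma adjusted p = 0.00775). The groups did not overlap, and leaving out MG18 or MG19 raised the adjusted p to 0.274 or 0.290. From the Y-linked gene Ddx3y, the controls MG15 and MG17 and the cKO library MG18 are male, and MG16 and MG19 are female. All 6 cortical markers were present in every library, with summed levels from 903 to 1201 FPKM in the controls and of 792 and 814 FPKM in cKO cortices. The libraries also differed in how short transcripts compared with long ones. Relative to genes over 2 kb, genes under 1 kb had a median log2 difference from 5-library means of 0.403 in MG17, 0.0528 in MG15, -0.00371 in MG18, -0.154 in MG16 and -0.239 in MG19. Since the members' median transcript length is 668 bases against 2250 over all genes tested, this is set beside the members' values further on.

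The clearest change among the members concerned a testis isoform, Cox7b2, and outside the name rule the testis cytochrome c, Cyct. Their promoters are shown because CpG sites are where Uhrf1 acts, beside those of Cox7b, the widely expressed partner of Cox7b2, and of Cox6b2, a testis isoform of complex IV that did not pass the test. Each is the 250 bases before the annotated start (RefSeq, GRCm38.p6), 5′ to 3′ on the gene's strand, with every CpG in capitals. They lie at chr5:71548206-71548455 on the minus strand (Cox7b2), chr2:76360454-76360703 on the minus strand (Cyct), chr7:4753095-4753344 on the minus strand (Cox6b2) and chrX:106015450-106015699 on the plus strand (Cox7b).
Cox7b2: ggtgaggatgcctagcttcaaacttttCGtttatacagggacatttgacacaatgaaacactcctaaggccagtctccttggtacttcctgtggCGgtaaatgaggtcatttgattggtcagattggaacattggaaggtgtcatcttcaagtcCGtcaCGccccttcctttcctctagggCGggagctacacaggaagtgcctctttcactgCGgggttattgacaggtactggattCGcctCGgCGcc
Cyct: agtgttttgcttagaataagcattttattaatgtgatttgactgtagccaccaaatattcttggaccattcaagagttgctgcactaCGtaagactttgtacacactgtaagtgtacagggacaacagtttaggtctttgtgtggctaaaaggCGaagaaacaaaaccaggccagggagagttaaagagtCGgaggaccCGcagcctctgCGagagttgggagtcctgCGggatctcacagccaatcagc
Cox6b2: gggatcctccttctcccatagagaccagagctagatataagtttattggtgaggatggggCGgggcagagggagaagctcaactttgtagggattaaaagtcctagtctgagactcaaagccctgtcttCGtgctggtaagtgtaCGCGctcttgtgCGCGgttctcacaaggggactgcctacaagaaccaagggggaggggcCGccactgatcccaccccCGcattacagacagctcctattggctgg
Cox7b: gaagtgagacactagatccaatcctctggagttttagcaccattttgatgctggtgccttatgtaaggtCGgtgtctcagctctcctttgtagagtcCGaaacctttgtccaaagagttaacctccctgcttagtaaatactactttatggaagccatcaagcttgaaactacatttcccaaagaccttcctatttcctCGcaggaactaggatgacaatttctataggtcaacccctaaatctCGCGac
These 250 bases hold 9 CpG sites in Cox7b2, 6 in Cyct, 8 in Cox6b2 and 5 in Cox7b. In windows that run 50 bases further, into the transcript, Cox7b2 and Cox6b2 hold 10 CpG sites each, Cyct 8 and Cox7b 5. The median over the 37 members with such a window was 19, against 7 over 27025 genes, so these 4 windows hold fewer CpG sites than the usual window of a member. Methylation of these sites was not analysed here.

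Cox7b2, the testis form of the small complex IV subunit VIIb, rose in the cKO. It was listed at 0.0559, 0 and 0 FPKM in the controls and at 1.91 and 1.10 FPKM in cKO cortices (log2FC 3.74 ± 0.47, limma adjusted p = 0.0038). Both cKO libraries lay above all controls, the male MG18 and the female MG19 alike. The exact permutation p was 0.1. Leaving out MG18 raised the adjusted p to 0.0891 and leaving out MG19 to 0.0614, while it lay between 0.00334 and 0.021 in the other alternatives that test the gene. With a minimum mean of 1 FPKM the gene is not tested. Its level rests on few fragments, roughly 1, 0 and 0 for the controls, 6 for MG18 and 4 for MG19 by an estimate from the steps between low values of 895 long genes. Cox7b2 (chromosome 5, 71442823 to 71548205, GRCm38) shares no 100-base window of its transcript with another annotated gene.

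The rise of Cox7b2 was small beside the level of its partner. Cox7b stood at 95.7, 95.1 and 137 FPKM in the controls and at 87.0 and 86.5 FPKM in cKO cortices, so both cKO libraries were the lowest (log2FC -0.31 ± 0.19, limma adjusted p = 0.566). Of the summed FPKM of the pair, Cox7b2 made up 0.0584%, 0% and 0% of control and 2.15% and 1.25% of cKO levels. The cytochrome c pair differed from this. Cyct, the testis form of the electron carrier between complexes III and IV, was listed at 0 in each of the 3 controls, and its cKO values were 2.08 and 2.25 FPKM (limma adjusted p = 4.78e-04), with no fold given against controls at 0 and about 8 and 10 fragments behind the cKO values. Cycs, the somatic cytochrome c, stood at 4.17, 3.29 and 3.41 FPKM in the controls and at 2.82 and 2.90 FPKM in cKO cortices (log2FC -0.32 ± 0.23, limma adjusted p = 0.608). In sum Cyct made up 42.5% and 43.7% of the summed FPKM of the pair in the cKO. For Cycs, 24.7% of the 100-base windows also occur in other annotated genes, 2 of them pseudogenes, so its level, and this share, are uncertain.

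The other testis isoforms of complex IV did not pass the test or were listed at 0. Cox6b2, the sperm form of subunit VIb, stood at 0.357, 0.359 and 0.269 FPKM in the controls and at 0.928 and 0 FPKM in cKO cortices, with the cKO libraries on either side of the controls (log2FC -0.41 ± 0.82, limma adjusted p = 0.867). Its partner Cox6b1 was at 613, 462 and 823 FPKM in the controls and at 495 and 441 FPKM in cKO cortices (log2FC -0.40 ± 0.26). Cox8c, the testis form of subunit VIII, was listed at 0 in all 5 libraries. Among 9 markers of testis germ cells, Tnp1, Prm1, Prm2 and Pgk2, which belong to later sperm development, were at 0 in every library. The summed level of the 9 was 1.11, 1.14 and 1.5 FPKM in the controls and 2.23 and 1.09 FPKM in cKO cortices. Of the 4 tested, Sycp3, a protein of the meiotic chromosome axis, was the 1 that passed p under 0.05, at 0.0355, 0.0555 and 0.141 FPKM in the controls and 1.13 and 0.519 FPKM in cKO cortices (log2FC 2.34 ± 0.50, limma adjusted p = 0.066).

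Of the muscle isoforms, Cox8b and Cox6a2 were at or near 0 FPKM in both groups and Cox7a1 reached, in 2 controls, about the level that Cox7b2 had in MG18. Cox8b was listed at 0 in every library, and Cox6a2 at 0.138, 0 and 0 FPKM in the controls and 0 and 0.22 FPKM in cKO cortices, too low to be tested. Cox7a1, the heart and skeletal muscle form of subunit VIIa, was at 2.05, 0.313 and 1.84 FPKM in the controls and at 0 and 0.454 FPKM in cKO cortices. MG16 lay below MG19, so the groups overlapped, while the fit gave a log2FC of -2.35 ± 0.84 (limma adjusted p = 0.335). Leaving out 1 library moved that change to between -3.58 (without MG19) and -1.11 (without MG18). Roughly 23, 1 and 5 control fragments and 0 and 1 cKO fragments lay behind the values. In that estimate 1 fragment per kilobase was worth 0.022 FPKM in MG15 and 0.061 to 0.12 FPKM in the other libraries. The fragment numbers of MG15 can therefore not be set directly against those of the others. Of 10 markers of skeletal and heart muscle, 4 could be tested and none passed p under 0.05. Their summed level was 1.47, 0.969 and 1.45 FPKM in the controls and 2.07 and 2.41 FPKM in cKO cortices, opposite in direction to Cox7a1, and Ckm, the muscle creatine kinase, was at 0 in all libraries but MG19, where it was 0.0801 FPKM.

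Cox4i2, the lung form of subunit IV, which pericytes also use, stood at 1.06, 1.70 and 2.02 FPKM in the controls and at 1.01 and 1.05 FPKM in cKO cortices. Both cKO values were the lowest, by a small margin (log2FC -0.54 ± 0.33, limma adjusted p = 0.556). The 6 pericyte markers had summed levels of 61, 51.7 and 58.2 FPKM in the controls and 58.2 and 62.1 FPKM in cKO cortices, with none past p under 0.05. The widely expressed partner Cox4i1 was among the most abundant members at 625, 532 and 610 FPKM in the controls and 600 and 591 FPKM in cKO cortices (log2FC 0.02 ± 0.20).

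**Figure D1:**
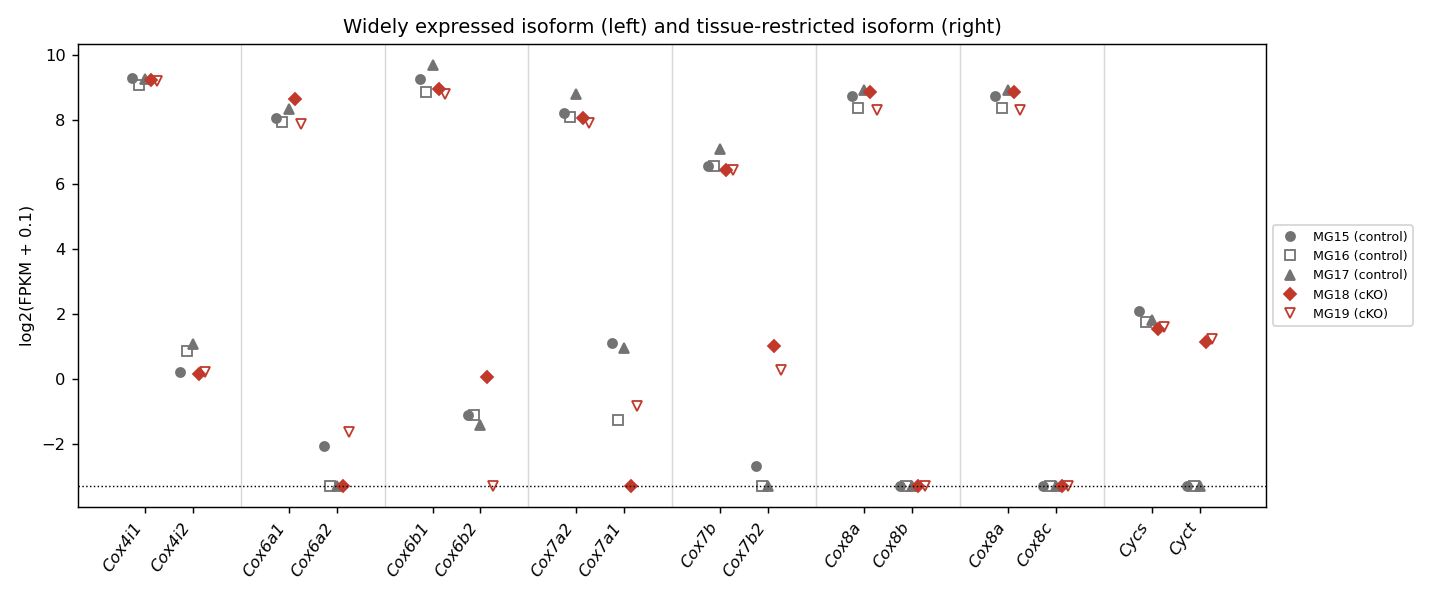
Levels of complex IV isoform pairs and of cytochrome c in each library, as log2(FPKM + 0.1); the dotted line is a value of 0 FPKM, grey symbols are the 3 controls and red symbols the 2 cKO libraries, and open symbols are females. Cox7b2 at 1.91 and 1.10 FPKM and Cyct at 2.08 and 2.25 FPKM lie well above their controls in both cKO libraries, and the widely expressed partners of Cox7b2 and the other complex IV isoforms lie far higher in every library.

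Complex II had the most even picture. Its 4 subunits are all nuclear, and all 4 had a lower mean log2 level in the cKO, with a median log2 fold change of -0.26. Of all genes tested 52.2% were lower, and 64.2% of those of 1 to 2 kb that averaged 1 FPKM or more. Sdhb, the iron-sulfur subunit, stood at 160, 129 and 178 FPKM in the controls and at 121 and 111 FPKM in cKO cortices. It was the 1 subunit of 4, or 25%, whose groups did not overlap (log2FC -0.41 ± 0.18, limma adjusted p = 0.438). Both cKO libraries lay below all controls in 16.3% of all genes tested. For genes of 1 to 2 kb that averaged 1 FPKM or more, that share was 23.8%. Sdhd, a membrane anchor, was at 104, 94.3 and 133 FPKM in the controls and 96.5 and 80.4 FPKM in cKO cortices (log2FC -0.31 ± 0.19). Sdha, the flavoprotein that binds succinate, was at 63.3, 66.6 and 47.4 FPKM in the controls and 48.2 and 52.8 FPKM in cKO cortices (log2FC -0.21 ± 0.18). Sdhc, the other anchor, was at 143, 117 and 113 FPKM in the controls and 116 and 115 FPKM in cKO cortices (log2FC -0.10 ± 0.17). None of the 4 passed p under 0.05. The summed level of the 4 was 470, 406 and 471 FPKM in the controls and 381 and 360 FPKM in cKO cortices, or 82.5% of the control mean. Complex II was the 1 complex whose sums did not overlap between the groups. How often the sums of other gene sets lie apart was not tested. The cKO sum of complex II was 81% of the control mean within males and 88.6% within females. The sums of complexes III, IV and V were also lower in both sexes, at 91%, 89.8% and 89% within males and 87.2%, 98.9% and 93.8% within females.

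In complex III, 3 of 9 members fell at p under 0.05, where 5.17% of all genes tested fell. Among genes that averaged 1 FPKM or more, 154 of 1264 under 1 kb fell, the length class of Uqcr10 and Uqcr11. In the class of 1 to 2 kb, which holds Uqcrc2, 270 of 3737 fell. Uqcrc2, a core protein of the matrix arm, stood at 158, 151 and 204 FPKM in the controls and at 112 and 116 FPKM in cKO cortices, clearly apart (log2FC -0.57 ± 0.18, limma adjusted p = 0.269). Uqcr10, a small subunit, was at 245, 236 and 324 FPKM in the controls and 212 and 165 FPKM in cKO cortices (log2FC -0.51 ± 0.21, limma adjusted p = 0.402). Uqcr11, the smallest subunit, was at 62.6, 47.9 and 67.9 FPKM in the controls and 44.5 and 42.0 FPKM in cKO cortices (log2FC -0.44 ± 0.18, limma adjusted p = 0.400). None of the 3 passed the adjusted threshold. They kept their direction in every alternative, although the median-ratio scaling and quantile normalization left 2 members of all complexes past p under 0.05 on the lower side, and a fit with no trend in the variance left 1. Of the windows of Uqcrc2, 21.5% also occur in Pdzd9 on the opposite strand. The library kit marks strand, but whether counting used it is not given in the sources used here.

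Other complex III members went elsewhere. Uqcrc1, the second core protein, was at 89.7, 81.0 and 68.4 FPKM in the controls and 84.1 and 75.9 FPKM in cKO cortices (log2FC 0.01 ± 0.17). The difference between Uqcrc1 and Uqcrc2 was not tested. Uqcrq, a small subunit named for ubiquinone binding, reached 207 FPKM in MG18 alone, against 58.7 FPKM in MG19 and 74.8, 46.3 and 112 FPKM in the controls (log2FC 0.59 ± 0.49, limma adjusted p = 0.661). Without MG18 its log2 fold change was -0.31. Cyc1, the cytochrome c1 subunit, was likewise highest in MG18, at 102 FPKM against 63.7 FPKM in MG19 and 81.7, 76.6 and 77.1 FPKM in the controls. Uqcrfs1, the Rieske iron-sulfur protein, was at 124, 129 and 156 FPKM in the controls and 118 and 122 FPKM in cKO cortices, lowest in both cKO libraries by a small margin. Over the 9 members the median log2 fold change was -0.18, and the summed level was 1226, 1084 and 1521 FPKM in the controls and 1249 and 946 FPKM in cKO cortices, with overlap.

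In complex IV the 11 widely expressed members had summed levels of 3071, 2628 and 3829 FPKM in the controls and 3099 and 2599 FPKM in cKO cortices, or 89.7% of the control mean, with overlap. None of the 11 passed p under 0.05, and their log2 fold changes ran from -0.40 (Cox6b1) to 0.15 (Cox6a1). Cox7a2, the widely expressed partner of Cox7a1, stood at 297, 271 and 442 FPKM in the controls and at 264 and 240 FPKM in cKO cortices, with both cKO libraries the lowest (log2FC -0.38 ± 0.23, limma adjusted p = 0.555). Cox7a2l was at 228, 224 and 274 FPKM in the controls and at 225 FPKM in both cKO libraries. Cox8a, the partner of Cox8b and Cox8c, was at 427, 329 and 483 FPKM in the controls and 460 and 315 FPKM in cKO cortices (log2FC -0.10 ± 0.24). Cox6a1 reached 399 FPKM in MG18 against 232 FPKM in MG19 and 265, 242 and 320 FPKM in the controls, the same 1-library excess as in Uqcrq. Cox5a, which with Cox4i1 is among the first nuclear subunits to join the assembling enzyme, was at 186, 180 and 212 FPKM in the controls and 210 and 192 FPKM in cKO cortices (log2FC 0.06 ± 0.17).

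In complex V, 15 of 17 members had a lower mean log2 level in the cKO, with a median log2 fold change of -0.20, and none passed p under 0.05. Of all genes tested 52.2% were lower, and 73.1% of those under 1 kb that averaged 1 FPKM or more. The 15 include Atp5s and Atp5sl, and also Atp5l, which was at 0 and 2.04 FPKM in cKO cortices. Both cKO libraries lay below all controls in 3 of the 17, or 17.6%, against 16.3% of all genes tested. Atp5c1, the gamma subunit of the rotor's central stalk, stood at 263, 249 and 336 FPKM in the controls and 225 and 213 FPKM in cKO cortices, without overlap (log2FC -0.35 ± 0.19, limma adjusted p = 0.511). Atp5b, the catalytic beta subunit and the most abundant member, was at 788, 669 and 695 FPKM in the controls and 596 and 639 FPKM in cKO cortices, again without overlap (log2FC -0.22 ± 0.21). Atp5e, the epsilon subunit, was at 632, 503 and 682 FPKM in the controls and 488 and 503 FPKM in cKO cortices, where the unrounded values still do not overlap (log2FC -0.28 ± 0.22). Atp5f1, the b subunit of the outer stalk, was at 101, 74.2 and 118 FPKM in the controls and 80.6 and 73.4 FPKM in cKO cortices (log2FC -0.32 ± 0.21). Among members that averaged 1 FPKM or more, the highest value was that of Atp5h, the d subunit, at 34.7, 17.5 and 36.9 FPKM in the controls and 31.8 and 29.1 FPKM in cKO cortices (log2FC 0.11 ± 0.29), followed by Atp5s with a log2 fold change of -0.01. The other member with a higher mean log2 level was Atp5g2, under 1 FPKM. Atp5k, a small membrane subunit, was another gene raised in MG18 alone, at 743 FPKM against 361 FPKM in MG19 and 543, 432 and 624 FPKM in the controls. The summed level of 13 widely expressed members was 3834, 3227 and 4107 FPKM in the controls and 3535 and 3028 FPKM in cKO cortices, or 88.1% of the control mean.

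Subunit c, which forms the membrane ring that turns as protons pass, is made from 3 genes with the same mature protein. Atp5g3 had the highest listed level of the 3, at 240, 216 and 248 FPKM in the controls and 258 and 200 FPKM in cKO cortices (log2FC -0.04 ± 0.18). Atp5g1 was at 23.6, 15.9 and 24.8 FPKM in the controls and 19.7 and 17.6 FPKM in cKO cortices (log2FC -0.17 ± 0.21). Atp5g2 was listed at 0, 0.162 and 0 FPKM in the controls and 0.355 and 0 FPKM in cKO cortices, with a log2FC smaller than its SE (log2FC 0.63 ± 0.77). For Atp5g2, 34.7% of the 100-base windows also occur in 2 annotated pseudogenes, and for Atp5g1 5.94% occur in other genes, against 0% for Atp5g3. The share of each gene in the subunit c mRNA is therefore uncertain.

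**Figure D2:**
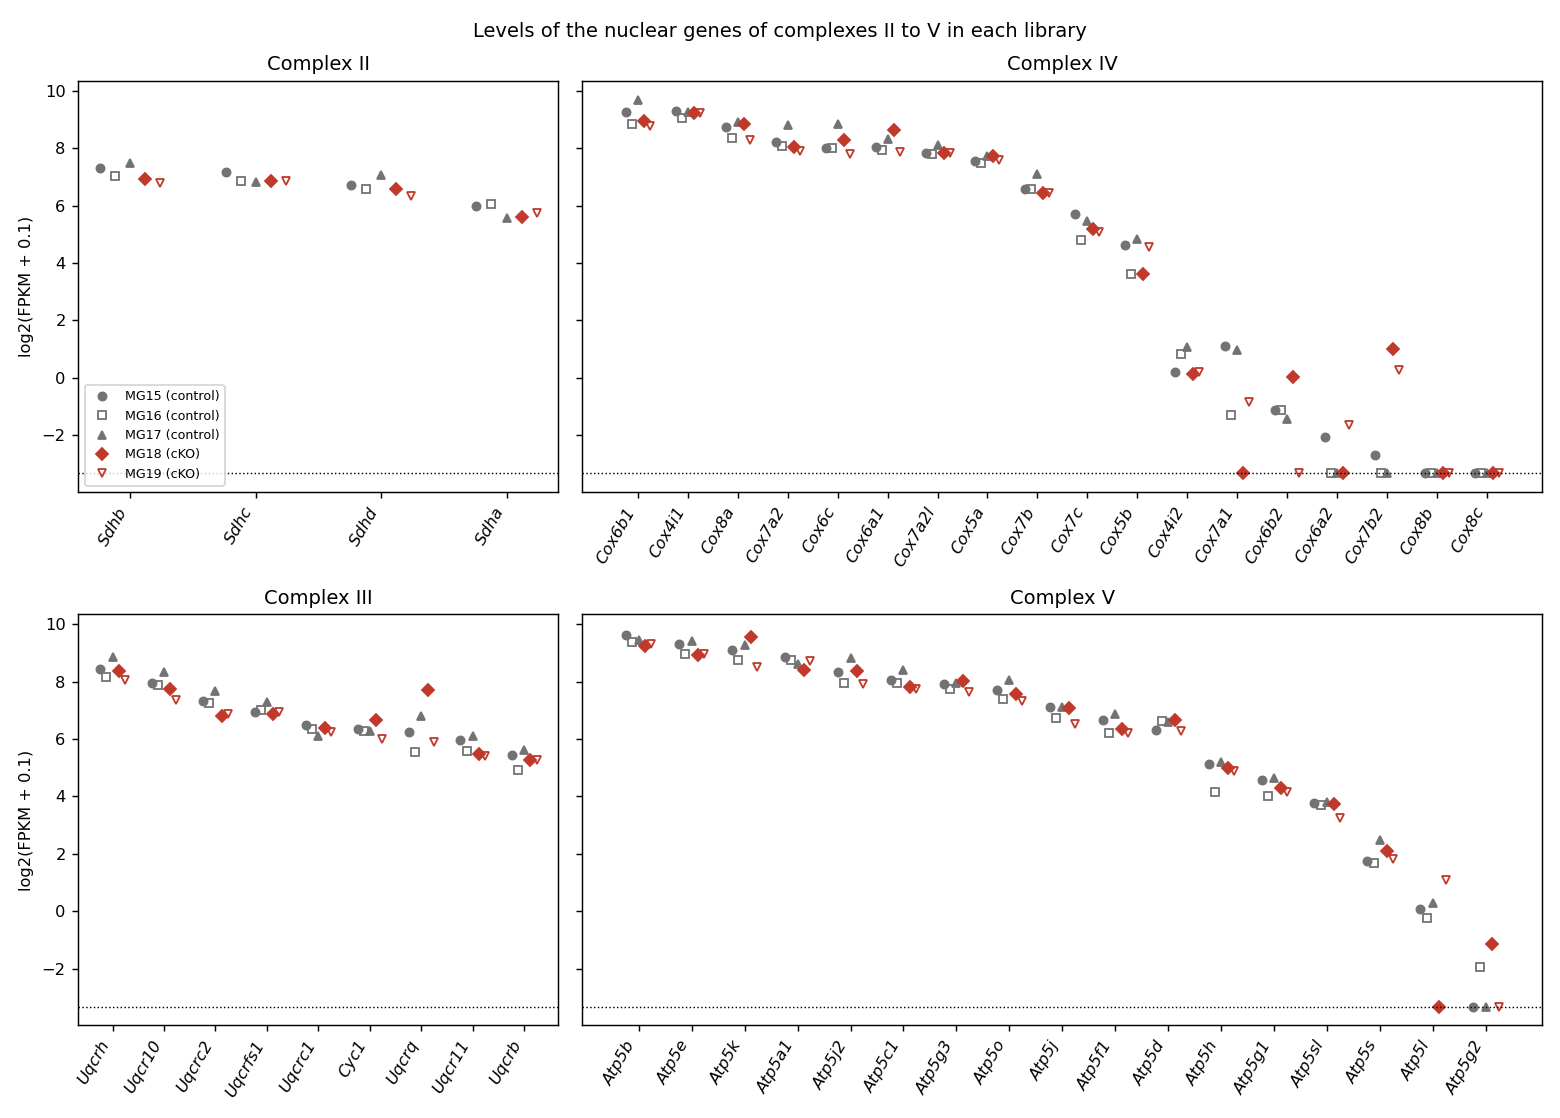
FPKM of the 48 members in each library, as log2(FPKM + 0.1), by complex and in order of the control mean; the dotted line is a value of 0 FPKM, grey symbols are controls, red symbols cKO libraries and open symbols females. Most genes of a complex lie within a narrow band per gene, and the tissue-restricted genes of complex IV and Atp5l and Atp5g2 of complex V lie far below the rest.

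The levels within a complex were set beside the sequence that each gene shares with other genes. Reads that mapped to several places were removed by the authors, and many of these genes have processed pseudogenes. Of 39 widely expressed members, 22 share no 100-base window with another annotated gene, and their control means ran from 59.1 to 718 FPKM with a median of 196. The 11 that share windows with an annotated pseudogene had a median of 41.4 FPKM. Atp5l, the g subunit of the membrane part, stood at 0.962, 0.743 and 1.11 FPKM in the controls and 0 and 2.04 FPKM in cKO cortices. Of its windows, 69% occur in 6 other genes, 5 of them pseudogenes. Atp5h, Uqcrb and Cox7c, with 21.7%, 15.8% and 17.6% shared windows, had control means of 29.7, 41.1 and 41.4 FPKM. Others with shared windows lay higher, Atp5o (26.8%) at 213 FPKM, Atp5f1 (15.8%) at 97.8 FPKM and Cox7a2l (9.98%) at 242 FPKM, so the share of windows alone does not order the levels. The levels of all genes with shared windows are uncertain, and a low value of Atp5l or Atp5g2 cannot be read as absence. Copies that the annotation lacks were not searched.

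**Figure D3:**
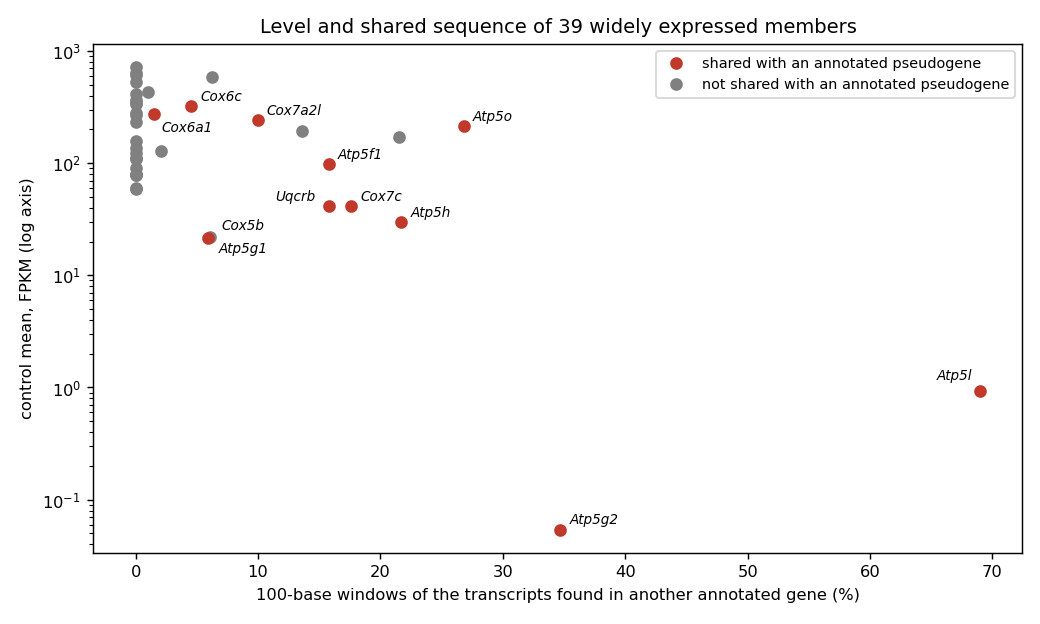
Control mean of 39 widely expressed members (FPKM, log axis) against the share of their 100-base transcript windows found in another annotated gene; red points share windows with a pseudogene. Atp5l at 69% and Atp5g2 at 34.7% shared windows lie below 1 FPKM, while the other points lie between 21.4 and 718 FPKM.

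Over all complexes, 45 of the 48 members passed the minimum of 0.1 FPKM. Cox6a2 did not, and Cox8b and Cox8c were at 0. Of the 45, 36 had a lower and 9 a higher mean log2 level in the cKO, with a median log2 fold change of -0.21 against -0.02 over all genes tested, of which 52.2% were lower. At p under 0.05, 4 members fell (Uqcrc2, Uqcr10, Uqcr11 and Cox7a1) and 1 rose (Cox7b2), where 5.17% of all genes tested fell and 6.37% rose. At p under 0.05 and over 2-fold, 1 member fell (Cox7a1) and 1 rose (Cox7b2), against 1.16% and 2.88% of all genes. At an adjusted p under 0.05 no member fell and Cox7b2 rose, against 0.163% and 1.1% of all genes (limma). Both cKO libraries lay below all controls in 11 members, or 24.4%, against 16.3% of all genes, and above all controls in 1 member, against 14.5%. The count of members that fell at p under 0.05 was 8 without MG16 and 2 without MG17, MG18 or MG19, and 11 non-overlapping members became 26 without MG16 and 27 without MG18. In a whole cortex, fewer cells with much of these mRNAs and less of them per cell cannot be told apart.

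**Figure D4:**
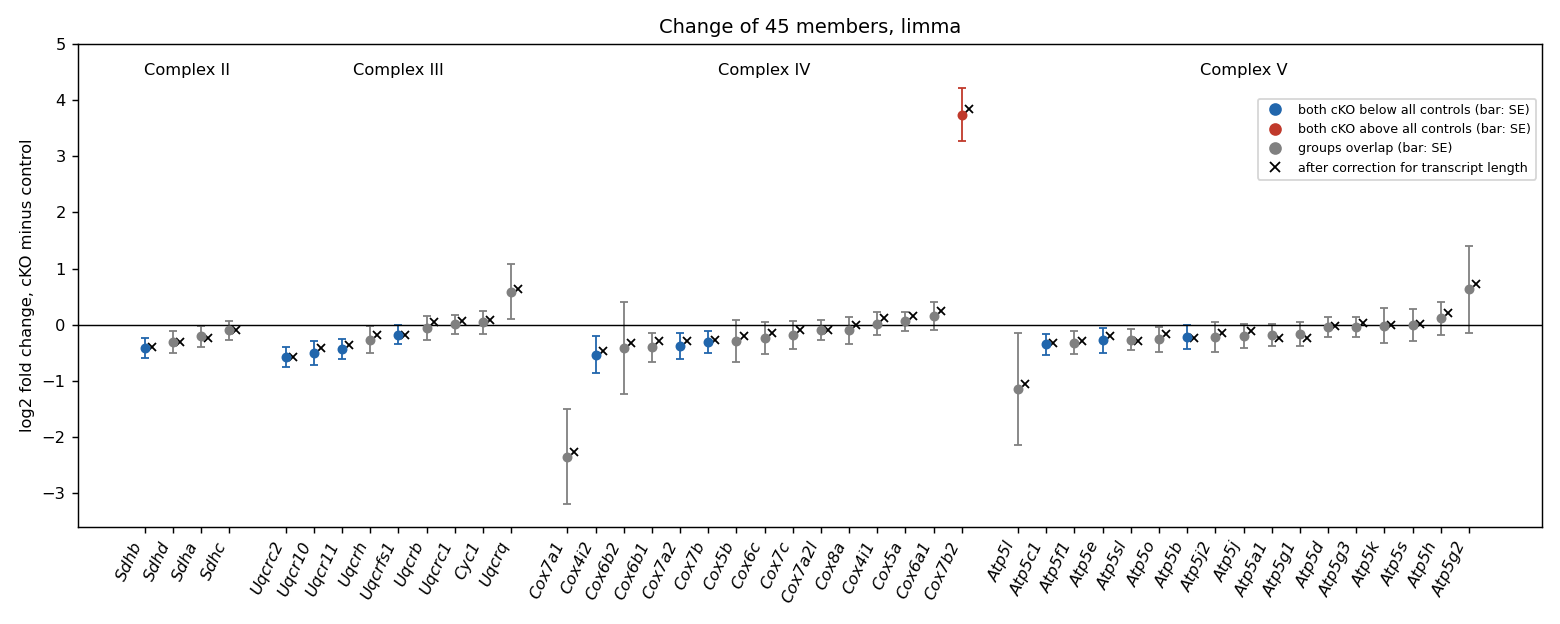
Log2 fold change (cKO minus control, on log2(FPKM + 0.1)) of the 45 tested members, ordered within each complex, with the SE from limma; colour gives whether the 2 cKO libraries lie apart from the 3 controls, and crosses give the value after a correction for transcript length. Most points lie between -0.57 and 0.15, Cox7b2 at 3.74 and Cox7a1 at -2.35 stand apart, and the crosses of many complex III, IV and V genes lie closer to 0.

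The lower levels of the members were shared with other short and abundant genes. Among all genes whose mean reached 1 FPKM, those under 1 kb had a median log2 fold change of -0.20, those of 1 to 2 kb -0.11 and those over 2 kb 0.02. The 660 tested genes whose mean reached 100 FPKM had a median of -0.18, with 77.7% lower and 32.3% with both cKO libraries below all controls. The 23 widely expressed members under 1 kb had a median of -0.19, with 16 lower and 4 below all controls, close to other genes of that length, of which 73.1% were lower and 25.6% below all controls. The 12 members of 1 to 2 kb had a median of -0.26, with 12 of 12 lower and 6 below all controls, where 64.2% of all genes of that length were lower and 23.8% below all controls. These 12 include Sdha, Sdhb, Sdhc, Sdhd and Uqcrc2. The part of transcript length and abundance in the members' values was not tested.

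Single libraries stood apart over the members as a whole. MG17, the control with the most signal from short transcripts, gave the highest value in 24 of 37 widely expressed members, or 64.9%, against 28.1% of 12085 genes. MG19 gave the lowest in 20, or 54.1%, against 22.6%. As a median over the tested members, the difference from the control mean was 0.04, -0.21 and 0.24 in MG15, MG16 and MG17 and -0.10 and -0.31 in MG18 and MG19, so that the female control MG16 lay below the male cKO library MG18. Within males the median difference of the members between cKO and control was -0.24, with 33 of 45 lower, and within females, where 1 library stands against 1, it was -0.07, with 32 lower. In 23 members, or 51.1%, the cKO was lower in both sexes, against 34.1% of all genes. That share was 47.9% for genes under 1 kb that averaged 1 FPKM or more, 57.4% for genes that averaged 100 FPKM or more and 50% for complex I names, so it is not particular to the members. With sex as a covariate the members' median was -0.17. After each library was corrected for its trend with transcript length, the median of the members was -0.18, with 32 of 45 lower, against -0.07 over all genes, and it was -0.27 for complex II, -0.18 for complex III, -0.15 for complex IV and -0.17 for complex V. Quantile normalization, which also evens out differences among abundant genes, left a median of -0.05 against -0.02 over all genes.

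**Figure D5:**
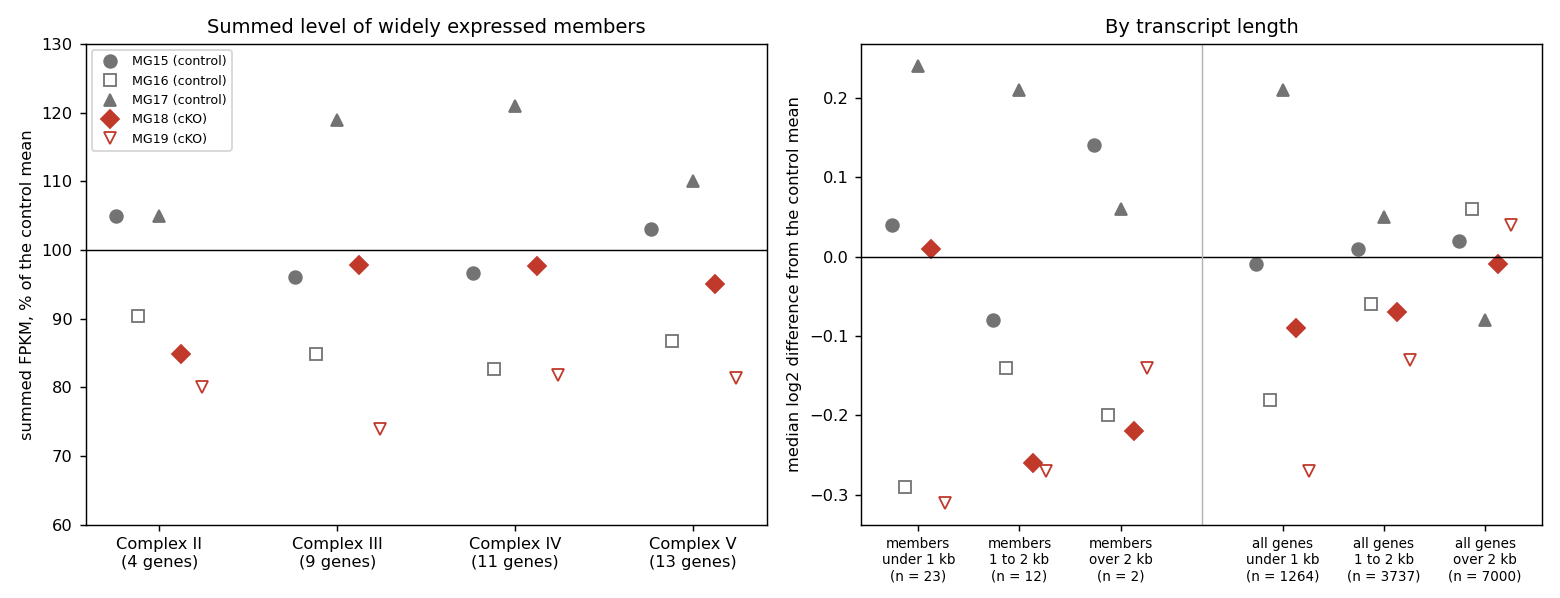
Left, summed FPKM of the widely expressed members of each complex in each library, as a percentage of the control mean; right, median log2 difference from the control mean for members and for all genes that averaged 1 FPKM or more, by transcript length. In complex II both cKO libraries (84.9% and 80.1%) lie below all controls, in the other complexes MG18 lies among the controls, and in genes under 1 kb MG17 is highest and MG19 lowest for members and all genes alike.

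Genes that work with these complexes were described in the same way. Of 35 assembly factors, 32 were in the table and tested. Of these, 23 (71.9%) had a lower mean log2 level, against 52.2% of all genes tested, and the median log2 fold change of the 32 was -0.16. At p under 0.05, 3 fell and none rose, where 5.17% of all genes tested fell and 6.37% rose. Lyrm7, which guards the Rieske protein before it enters complex III, stood at 3.67, 3.95 and 3.03 FPKM in the controls and 1.97 and 2 FPKM in cKO cortices (log2FC -0.80 ± 0.24, limma adjusted p = 0.23). Taco1, a translational activator of the mitochondrial Cox1 mRNA, was at 13.4, 13 and 12.3 FPKM in the controls and 8.35 and 9.58 FPKM in cKO cortices (log2FC -0.53 ± 0.17, limma adjusted p = 0.271). Coa3, which also acts on newly made Cox1, had a log2FC of -0.39 ± 0.16 (limma adjusted p = 0.403). Both cKO libraries lay below all controls in 12 of the 32, or 37.5%, against 16.3% of all genes tested and 23.8% of those of 1 to 2 kb. The median transcript length of these factors is 1350 bases. None passed the adjusted threshold.

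The transcriptional regulators of respiratory genes did not pass p under 0.05 in any of the 10 tested. Their median log2 fold change was -0.12, and Nrf1 (-0.11), Gabpa (0.10), Yy1 (0.13), Tfam (-0.21) and Ppargc1a (-0.33) lay on both sides of 0. Of 15 other mitochondrial proteins, 12 were lower, with a median of -0.15, where 52.2% of all genes tested were lower. At p under 0.05, 2 fell, where 5.17% of all genes tested fell. They were the matrix enzyme Suclg1 (-0.41, limma adjusted p = 0.409) and the import channel Timm23 (-0.52, limma adjusted p = 0.408). The 3 ATP synthase parts outside the name rule, Usmg5, 2010107E04Rik and Atpif1, had log2 fold changes of -0.70, -0.24 and -0.23, with none past p under 0.05. Complex I and mitochondrial ribosomal protein names, the most like gene groups, gave similar medians. They were -0.21 over 44 complex I names with 40 lower and -0.20 over 77 names of mitochondrial ribosomal proteins with 69 lower. The 96 names of cytosolic ribosomal proteins, with a median transcript length of 748 bases against 668 for the members, had -0.08 with 62 lower. These name rules can also take in other genes, such as Ndufaf assembly factors and Rps6k kinases. Of all genes tested 52.2% were lower, and 73.1% of those under 1 kb that averaged 1 FPKM or more. The differences between these gene groups were not tested. The 6 mitochondrially encoded subunits of complexes III, IV and V (mt-Cytb, mt-Co1, mt-Co2, mt-Co3, mt-Atp6 and mt-Atp8) are not analysed here.

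Binding motifs of the known regulators were counted in the promoters of 37 members, from 250 bases before to 50 after the start, on both strands. The NRF1 core GCGCATGC occurred in 7 (18.9%, against 3.05% of 27025 genes), the ETS motif CCGGAAG, which GABPA recognises, in 12 (32.4% against 9.93%), the YY1 motif AAGATGGCG in 3 (8.11% against 1.64%) and the CRE motif TGACGTCA in 1 (2.7% against 2.03%). The members holding both the NRF1 core and the ETS motif were Atp5k, Atp5l, Cox6a1, Sdhb and Uqcr11. Cox7b2, Cox6b2, Cox7b and Cyct held none of the 4. These are matches of letters and describe the sequences only.

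Some markers of other cell types differed between the groups at p under 0.05, and none did at an adjusted p under 0.05. Of all genes tested, 5.17% fell and 6.37% rose at p under 0.05. Microglial markers summed to 7.10, 6.84 and 8.47 FPKM in the controls and 11.5 and 9.64 FPKM in cKO cortices. Of the 4, Cx3cr1 (limma adjusted p = 0.239) and Csf1r (limma adjusted p = 0.323) were higher at p under 0.05. By Iba1 staining at embryonic day 16, the study describes microglia as alike in number and shape in both genotypes. The other microglial markers had negative values, Aif1 with a log2FC of -0.55 and Tmem119 with -0.62 and both cKO libraries below all controls, and neither passed p under 0.05. Erythroid markers summed to 824, 582 and 780 FPKM in the controls and 505 and 442 FPKM in cKO cortices, with Hbb-bs lower and Hba-a1 higher at p under 0.05 among 5. Hba-a1 stood at 34.5 FPKM in MG18, while MG19 at 1.29 FPKM lay next to the control MG16 at 1.26 FPKM. Endothelial markers overlapped in sum, with 68.5 to 101 FPKM in the controls and 86.2 and 77.9 FPKM in cKO cortices. Of the 4, 1 (Kdr) was higher at p under 0.05, with overlapping groups. Choroid plexus markers stood at 0.48 to 0.884 FPKM in the controls and at 0 and 0.389 FPKM in cKO cortices, and the 1 tested, Ttr, was lower at p under 0.05 with overlapping groups. Among cortical markers Emx1 fell, at 38.3, 29.9 and 37.6 FPKM in the controls and 21.9 and 25.3 FPKM in cKO cortices (log2FC -0.58 ± 0.17, limma adjusted p = 0.235). The part of these cell types in the members' values was not tested.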

How the data were processed

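RNA from the entire cortex of 3 control and 2 Uhrf1 cKO embryos was depleted of ribosomal RNA and made into strand-specific libraries. The authors mapped paired reads to mm10 with TopHat2, removed duplicated, multiply mapped, poorly aligned and improperly paired reads, and deposited FPKM values per gene and library from Cuffdiff. The sources used here give no tool versions. Groups were taken from the labelled genotype.

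From the deposited FPKM, log2(FPKM + 0.1) was fitted with limma 3.58.1 in R 4.3.3 (variance trend with level, prior degrees of freedom 6.23, no covariate) for 14698 genes whose mean reached 0.1 FPKM, with Benjamini-Hochberg adjustment over all of them. Of 1225 small RNA names, 57 reached that mean and were left out. The fit was tested on simulated data. The table holds no counts, so depth is unknown beyond a rough estimate from the steps between low values, in which 68.8% to 82.2% of values per library lay within 0.25 of a whole fragment (50% by chance). An exact 0 may be an estimate that failed.

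Named in full were all complex II members, the tissue-restricted isoforms with their partners, the 3 c-subunit genes, in complexes III to V the 3 lowest and 2 highest log2 fold changes among members whose mean reached 1 FPKM, and members past p under 0.05 and over 2-fold or the adjusted threshold. Uqcrfs1, Uqcrc1, Atp5b, Atp5k, Atp5l and members named for shared sequence were chosen after their values were seen. Members and lists were chosen with earlier results of these data known. Transcript lengths and 100-base windows came from GENCODE M21 on GRCm38, which matched 23618 of the 23997 names, and promoters from RefSeq (GRCm38.p6). Alternatives were other pseudocounts, filters, scalings, a length correction (loess, span 0.3), sex as a covariate, no variance trend, small RNAs kept and each library left out. Python 3.11.15, pandas 2.3.3, numpy 2.4.6 and matplotlib 3.10.9 were used.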

Additional observations from a re-analysis of the deposited data

How the results depend on the processing

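No paired analysis was possible because the labels give the libraries no shared replicate numbers. Over all tested members of each complex, the median log2 fold changes of complexes II to V stayed below 0 in every alternative. With quantile normalization they were -0.14, -0.04, -0.10 and -0.02 for complexes II, III, IV and V. For the 13 widely expressed members of complex V alone, that median was 0.02. Without 1 library the medians over all tested members ranged from -0.29 to -0.23, from -0.31 to -0.09, from -0.39 to -0.05 and from -0.30 to -0.03.

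The count of 4 members that fell at p under 0.05 was 2 with quantile normalization, 2 with median-ratio scaling, 1 with no trend in the variance and 2 to 8 without 1 library. The 1 that rose became 0 with a minimum mean of 1 FPKM, at which Cox7b2 is not tested, 2 with sex as a covariate and 1 to 3 without 1 library. The 1 that fell by over 2-fold became 0 with a pseudocount of 1, with a minimum mean of 1 FPKM and with no trend, and 0 to 2 without 1 library. The 1 that rose by over 2-fold became 0 with a minimum mean of 1 FPKM and 1 to 3 without 1 library, and at the adjusted threshold it became 0 and 0 to 1. The 11 members below all controls became 6 with quantile normalization, 7 with median-ratio scaling and 11 to 27 without 1 library. The 1 above all controls became 0 with a minimum mean of 1 FPKM, 3 with quantile normalization, 2 with the length correction and 1 to 9 without 1 library. Counts without 1 library compare fewer libraries, and the other causes were not tested.

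Of 416 alternative values of the genes named by the rule and of Uhrf1, 388 kept direction and side of the threshold, 4 kept direction but lost the threshold and 24 changed sign. The 4 are Uhrf1 and Cox7b2 without either cKO library, with log2 fold changes of -2.25 to -1.82 for Uhrf1 without 1 library. All that changed sign had missed the threshold. With quantile normalization, Sdhc was at 0.05, Cox7a2l at 0.07, Cox8a at 0.11 and Atp5g3 at 0.13. With the length correction, Cox8a was at 0.00, Atp5g3 at 0.03 and Atp5s at 0.02. Cox6b2 was at 0.06 with a pseudocount of 1, and Atp5s at 0.03 with median-ratio scaling and 0.05 with sex as a covariate. Without 1 library, values ranged from -0.16 to 0.01 for Sdhc, -2.09 to 1.27 for Cox6b2, -0.05 to 0.06 for Cox4i1, -0.24 to 0.54 for Cox6a1, -0.37 to 0.17 for Cox8a, -0.46 to 1.72 for Atp5g2, -0.23 to 0.14 for Atp5g3, -0.30 to 0.38 for Cyc1, -0.31 to 1.5 for Uqcrq, -0.00 to 0.13 for Cox5a, -0.15 to 0.25 for Atp5s and -0.23 to 0.31 for Atp5h. Genes under about 1 FPKM rest on few fragments.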
